A study of Mus musculus with 3 samples.

Results

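Macrophages of the day 7 skin wound were taken as the barcodes in which Pf4, Lyz2, Arg1, C1qa and C1qb together made up at least 0.3% of the UMIs and at least 3 UMIs. The barcode also had to hold at least 200 genes and at most 10% mitochondrial UMIs, less than 1% of UMIs from S100a8 and S100a9, and 0 UMIs of Pdgfra, Cd3e and Ccr7. A UMI (unique molecular identifier) stands for 1 captured mRNA molecule. The rule left 197 of the 5142 day 7 barcodes within the gene and mitochondrial limits, and of 23384 such barcodes in all 3 libraries. They were split by Acp5, the gene of tartrate-resistant acid phosphatase: 80 members had at least 1 Acp5 UMI and 117 had 0. The members were chosen by these measured values, and since Acp5 made the split, its own level in these groups is a description.

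The study placed full-thickness wounds of 1.0 cm by 0.5 cm on the backs of C57BL/6 males, 7 to 9 weeks old, with hair follicles in telogen, their resting phase. Unwounded (non-lesional) skin and the wounds of day 2 and day 7 were digested with collagenase D and DNase1 and sequenced as 1 droplet library each (10x Chromium 3′ chemistry, version 2). The sources used here give neither the number of mice per library nor whether mice were pooled, and no group carries a transgene or a drug by the labels. With 1 library per time point, cells are not replicates. Every interval below covers counting error of UMIs or cells only and is a 95% interval, and no p-value is given.

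Tartrate-resistant acid phosphatase is a lysosomal and secreted metalloenzyme that histologists use to stain osteoclasts, the multinucleated macrophage relatives that resorb bone, and that also occurs in tissue macrophages and dendritic cells. In osteoclasts the receptor RANK (Tnfrsf11a) and the transcription factor NFATc1 turn on a common set of genes: Ctsk for the collagen-cleaving protease cathepsin K, Atp6v0d2 for a subunit of the acid-secreting proton pump, Mmp9 for gelatinase B, and Dcstamp and Ocstamp for membrane proteins needed for cell fusion. In wounds, macrophages that follow the neutrophils clear debris and shape the new matrix, and those loaded with lipid express Spp1, Lpl, Trem2 and Gpnmb.

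Acp5 lies on the minus strand of chromosome 9 of GRCm38 (mm10), from 22126727 to 22135711. Ctsk spans 95499256 to 95509362 on chromosome 3, Atp6v0d2 19876841 to 19922605 on chromosome 4, Spp1 104435118 to 104441050 on chromosome 5, Lpl 68880491 to 68907448 on chromosome 8, Arg1 24915221 to 24927484 on chromosome 10 and Mmp9 164940780 to 164955850 on chromosome 2. Start-site windows (250 bases before to 50 after a start, RefSeq, GRCm38.p6) were found for 4 of 10 genes looked up, 7 windows in all. Those of Acp5, Ctsk and Spp1 are shown because Acp5 made the split, and because Ctsk differed most with the choice of gate of the 5 marker genes, and Spp1 was the most abundant of them. Capitals mark matches on either strand to CACATG or CACGTG, the E-boxes read by MITF and its relatives, to TGACTCA (AP-1) or to AGGAAGT (an ETS motif of the PU.1 kind). The Acp5 window shown is chr9:22130549-22130848 (minus strand), that of Ctsk chr3:95498960-95499259 (plus) and that of Spp1 chr5:104434861-104435160 (plus). This Acp5 window, the only one of that gene with a match, lies within the gene span given above. The window at the outermost start of Acp5, chr9:22135697-22135996, held none of the 4 motifs.
Acp5: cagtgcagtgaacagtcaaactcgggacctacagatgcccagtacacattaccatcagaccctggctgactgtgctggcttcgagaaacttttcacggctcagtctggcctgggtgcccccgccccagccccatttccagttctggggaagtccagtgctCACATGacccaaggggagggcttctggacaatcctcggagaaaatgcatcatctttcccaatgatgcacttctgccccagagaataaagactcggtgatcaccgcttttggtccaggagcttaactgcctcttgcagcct
Ctsk: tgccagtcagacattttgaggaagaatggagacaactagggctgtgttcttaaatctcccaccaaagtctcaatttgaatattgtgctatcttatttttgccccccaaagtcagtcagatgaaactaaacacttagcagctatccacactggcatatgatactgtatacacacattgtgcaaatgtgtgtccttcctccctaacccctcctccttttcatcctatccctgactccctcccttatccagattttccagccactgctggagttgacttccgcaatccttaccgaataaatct
Spp1: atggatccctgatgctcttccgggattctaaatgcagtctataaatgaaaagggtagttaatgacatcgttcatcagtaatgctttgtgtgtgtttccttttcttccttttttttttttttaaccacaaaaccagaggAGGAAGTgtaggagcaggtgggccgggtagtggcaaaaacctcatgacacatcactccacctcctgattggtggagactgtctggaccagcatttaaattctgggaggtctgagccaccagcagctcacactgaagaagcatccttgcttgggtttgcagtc
The Acp5 window held 1 CACATG and the Spp1 window 1 AGGAAGT, and the Ctsk window held none of the 4 motifs. The 2 other Acp5 windows and the 1 other Spp1 window held none either, and that of Gpnmb held 1 TGACTCA. Of all 32851 windows, 14.2% held CACATG, 7.15% CACGTG, 5.20% TGACTCA and 9.35% AGGAAGT. Atp6v0d2, Lpl, Arg1, Mmp9, Ocstamp and Dcstamp were not in the table.

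The 197 members carried a median of 6234 UMIs each (515 to 39050), in a library of 102345327 UMIs. Of 17 macrophage identity genes that the rule did not use, 16 were tested below, and the groups had a summed level of 10059 CPM (UMIs of a gene per 1000000 UMIs of the group) in Acp5-positive members and 10358 CPM in Acp5-zero members at matched depth. Cd68, a macrophage lysosomal protein, was seen in 72 of 80 Acp5-positive and in 81 of 117 Acp5-zero members, with no matching on depth. With cells thinned to an equal depth, as described below, Cd68 was seen in 77.4% of Acp5-zero cells. The thinned shares were 76%, 73.1% and 73.9% in cells with 1, 2 to 4 and 5 or more Acp5 UMIs. The doublet score of 3 members was among the 428 highest of the library, all of them Acp5-zero. The libraries shared 9 to 20 barcode sequences pairwise, and 0 of these were members.

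Acp5 was spread unevenly over the cells that had it. The 80 positive members held 437 Acp5 UMIs, from 1 to 73 per cell with a median of 2, which came to 545 CPM over these cells. Of them 29 had 1 UMI, 28 had 2 to 4 and 23 had 5 or more, and those 23 carried 76.2% of the members' Acp5 UMIs. The cell with most had 16.7% of all and the next 30 UMIs.

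Detection also followed depth. Acp5-positive members had a median of 8170 UMIs and Acp5-zero members 5044. Acp5 was seen in 40.6% of members (33.7 to 47.8%, exact binomial), and in 31.6% (24.5 to 39.5%; 50 of 158) once each cell was thinned to 3000 UMIs and 39 shallower cells were left out. In cells not known for Acp5 the thinned shares were lower: 6.88% of 2427 Pdgfra-positive barcodes, 11.1% of 190 Cd3e-positive barcodes and 2.42% of 207 barcodes with at least 5 UMIs of Rgs5. Unthinned, those shares were 34.3%, 16.5% and 10.9%, at median depths of 27279, 3265 and 14733 UMIs. The Pdgfra, Cd3e and Rgs5 sets stand for fibroblasts, T cells and pericytes by those genes alone. Of the 2883 Acp5 UMIs of the Pdgfra-positive barcodes, 1301 lay in 14 of the Acp5-rich barcodes described further below. In the Rgs5 set 76 of 112 Acp5 UMIs lay in 1 barcode. Free RNA at the level of the fibroblast collagen Col1a1, which stood in members at 4.47% (Acp5-positive) and 4.26% (Acp5-zero) of its level in Pdgfra-positive barcodes, would bring 1.69 CPM of Acp5 to the Acp5-positive group. That value rests on 37.7 CPM of Acp5 over all Pdgfra-positive barcodes, the Acp5-rich ones included.

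Across the 3 libraries the same rule found 116 members in non-lesional skin, 193 at day 2 and 197 at day 7. Acp5 was seen in 2.59%, 20.7% and 40.6% of them, at median depths of 5057, 2108 and 6234 UMIs. Thinned to 3000 UMIs, the shares were 2.27% of 88 cells, 32.2% of 59 cells and 31.6% of 158 cells. Summed over members, Acp5 stood at 7.55, 224 and 291 CPM. At equal depth the day 7 share was no higher than that of day 2, and the share in non-lesional skin was below both. At day 2 the thinning left out 134 of 193 members. With 1 library each, time and library cannot be told apart.

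**Figure D1:**
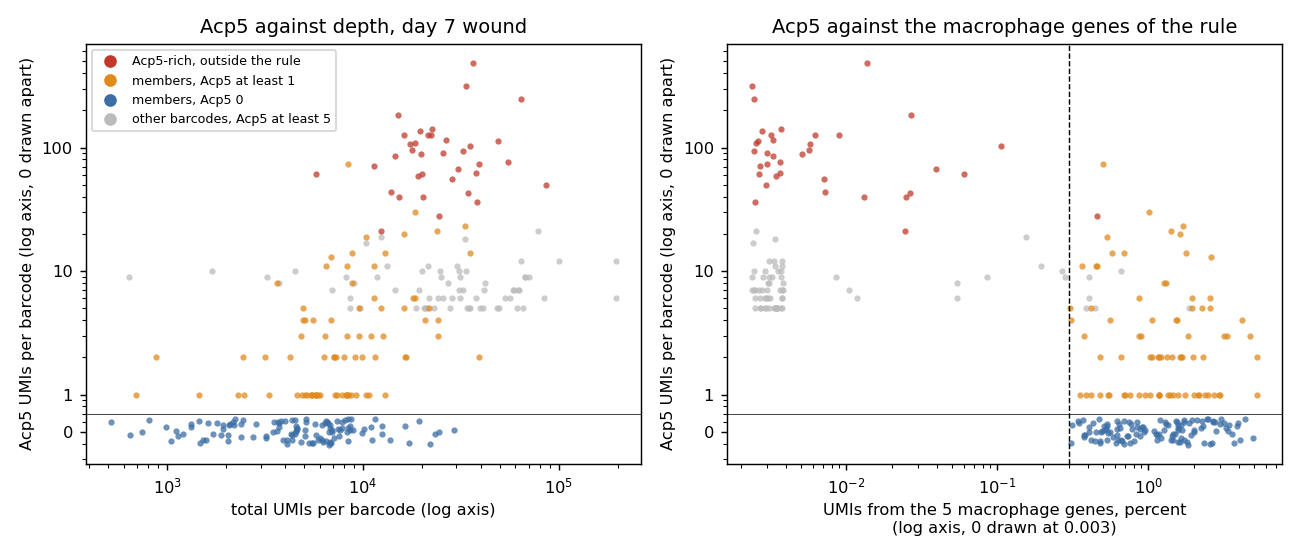
Acp5 UMIs per day 7 barcode against its total UMIs (left) and against the percent of UMIs from the 5 macrophage genes of the rule (right), all on log axes with 0 drawn apart and the 0.3% limit dashed. The 36 Acp5-rich barcodes outside the rule hold 21 to 483 Acp5 UMIs and nearly all lie left of the limit, and members with Acp5 sit at higher depth than members without.

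For the comparison at matched depth, 70 Acp5-positive members were each paired with an Acp5-zero member of nearest depth. The pairs left out 10 positive and 47 zero members and brought the medians to 7245 and 6798 UMIs. UMIs were summed over each group, 589245 and 568253 in all, and a gene was called when the levels differed by at least 2-fold on the log2 scale with 5 CPM added. Of 7447 genes with at least 10 UMIs, 188 (2.52%) were called higher and 191 (2.56%) lower in Acp5-positive members, with a median log2 ratio of 0.01. Without the cell holding most UMIs of the gene, 91 and 65 of these calls remained.

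Of the 5 genes named with Acp5 as markers of these cells, Ctsk, Atp6v0d2, Spp1, Lpl and Arg1, none was 2-fold apart. Ctsk had 75 UMIs in 31 Acp5-positive members, against 63 UMIs in 29 Acp5-zero members. That came to 127 CPM against 111 CPM, a ratio of 1.15 with an interval of 0.81 to 1.63. The groups overlapped, with a median of 0 UMIs per cell over all members of each and at most 11 in an Acp5-positive and 13 in an Acp5-zero cell. Free RNA at the Col1a1 share would bring 27.1 CPM of Ctsk to Acp5-positive and 25.8 CPM to Acp5-zero members, since Pdgfra-positive barcodes had 606 CPM of Ctsk. The same share overstates other fibroblast genes in these groups. It would bring 167 CPM and 159 CPM of Dcn, which stood at 89.9 CPM and 66.9 CPM. For Col3a1 it would bring 885 CPM and 844 CPM, against 653 CPM and 648 CPM seen. Thinned to 3000 UMIs, Ctsk was seen in 21.6% of 74 Acp5-positive and 25.0% of 84 Acp5-zero cells.

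Atp6v0d2 had 24 UMIs in 13 Acp5-positive and 22 UMIs in 10 Acp5-zero members. The levels were 40.7 CPM against 38.7 CPM, a ratio of 1.05, but the interval of 0.565 to 1.97 leaves room for nearly 2-fold either way. Over all members, with no matching, it was seen in 18 of 80 Acp5-positive and 10 of 117 Acp5-zero cells, and the positive cells were deeper. Both Ctsk and Atp6v0d2 were present together in 11 Acp5-positive and 7 Acp5-zero members. Across 18 alternatives within the rule the log2 ratio ran from -0.91 to 0.91 for Ctsk and from -0.90 to 0.96 for Atp6v0d2. The sign thus depended on how cells were thinned, split or selected, and neither gene reached 2-fold.

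Spp1, the gene of osteopontin, was lower in Acp5-positive members, at 6542 CPM against 9058 CPM in Acp5-zero members (ratio 0.722, 0.693 to 0.753). It was present in 65 of 70 cells of each group, with a median of 29.5 UMIs over all Acp5-positive and 21 over all Acp5-zero members, and the highest cell held 387 UMIs among all Acp5-positive and 714 among all Acp5-zero members. Its log2 ratio of -0.47 ran from -0.77 to 0.08 over 18 alternatives within the rule, with the sign turned when cells were thinned and split by the thinned Acp5 count. Lpl, the lipoprotein lipase, was at 535 CPM against 415 CPM (ratio 1.29, 1.08 to 1.53). It was seen in 18 and 17 cells, and a single cell of each group held 127 of 315 and 131 of 236 UMIs. Leaving out cells with the division genes Mki67 or Top2a moved its log2 ratio of 0.36 to 2.14, and taking at least 5 Acp5 UMIs as positive moved it to -2.01. Arg1, the arginase of wound macrophages and a gene of the rule, stood at 1818 CPM against 1596 CPM (ratio 1.14, 1.04 to 1.25), with log2 ratios from -0.62 to 0.41 over the alternatives.

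Among the osteoclast regulators, Nfatc1 was called higher and Fos, an AP-1 subunit, lower. Nfatc1 had 25 UMIs in 18 Acp5-positive members and 9 UMIs in 8 Acp5-zero members, with at most 2 in any cell of either group. The levels were 42.4 CPM against 15.8 CPM, a ratio of 2.68 (1.21 to 6.52), and the log2 ratio stayed between 0.89 and 1.80 over 18 alternatives, 16 of them at least 2-fold. Thinned, Nfatc1 was seen in 14.9% (7.66 to 25.0%) of Acp5-positive and 3.57% (0.74 to 10.1%) of Acp5-zero cells. Tnfrsf11a, the gene of RANK, was at 30.5 CPM against 26.4 CPM (18 and 15 UMIs). Dcstamp had 6 against 2 UMIs and Ocstamp 3 against 2, too few to compare, and Oscar, Calcr and Siglec15 had 0 in both matched groups, which allows up to 5.28 CPM in the Acp5-zero group (3 counts over the group).

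Mmp9 stood at 171 CPM in Acp5-positive and 54.6 CPM in Acp5-zero members (101 and 31 UMIs; ratio 3.14, 2.08 to 4.86). It came from 15 and 13 cells, so the number of cells differed little, and 26 of the positive group's UMIs lay in 1 cell. Thinned to 3000 UMIs with the same split, the log2 ratio turned from 1.57 to -0.20.

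**Figure D2:**
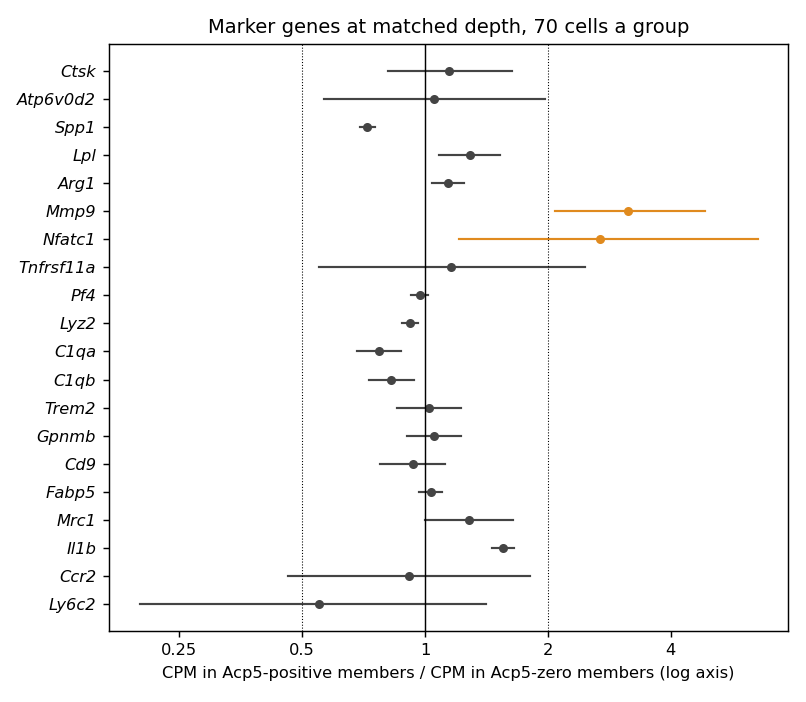
Ratio of summed CPM in 70 Acp5-positive over 70 Acp5-zero day 7 members for 20 marker genes, on a log axis, with exact 95% intervals for counting error and dotted lines at 2-fold either way. Mmp9 and Nfatc1 (orange) are past 2-fold, and Ctsk, Atp6v0d2, Lpl and Arg1 lie near a ratio of 1.

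Whole groups of genes showed few calls. Of 24 genes of osteoclast differentiation and fusion 18 could be tested, of which 1 was higher (Nfatc1) and 1 lower (Fos, 328 CPM against 720 CPM), with a median log2 of 0.10 against 0.01 over all genes. Of 13 genes of the resorption machinery 11 were tested and Mmp9 was higher, with a median of 0.24. None of 18 proton pump subunits and none of 35 tested lysosomal genes was called in either direction, with medians of 0.11 and 0.04. Of 20 genes of lipid-associated macrophages Itgax was called higher (15 UMIs in 5 Acp5-positive cells and 0 in Acp5-zero cells, at least 4.82-fold against 3 counts over the group) and the median was -0.03. Trem2 stood at 438 CPM against 428 CPM, Gpnmb at 619 CPM against 590 CPM, Cd9 at 401 CPM against 429 CPM and Fabp5 at 3459 CPM against 3351 CPM. The ratios of these 4 genes lay between 0.933 and 1.05.

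Of 21 tested genes of lipid uptake and cholesterol handling 1 was called, Acsl1, which activates fatty acids, at 45.8 CPM against 14.1 CPM. None of 27 genes of glycolysis and hypoxia and none of 28 of the respiratory chain was called, with medians of 0.06 and -0.03. These counts are read against the 2.52% called higher and 2.56% lower over all genes.

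In the lists of activation state some calls rested on few cells. Of 12 tested genes of alternative activation 3 were higher and 0 lower (median 0.44). Chil3, a chitinase-like lectin, had 19 UMIs in 3 cells against 1 UMI, and the chemokine Ccl22 32 UMIs against 2, of which 29 lay in 1 cell. Mmp12, macrophage elastase, was at 591 CPM against 222 CPM in 25 and 16 cells, with 110 of its 348 UMIs in 1 cell. The mannose receptor Mrc1 was at 268 CPM against 209 CPM.

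Of 20 inflammatory genes Il1a was higher and Il6 lower (median 0.13). Il1a stood at 395 CPM against 183 CPM in 37 and 30 cells, and Il1b at 4511 CPM against 2907 CPM (ratio 1.55, 1.46 to 1.65), seen in 48 of 70 Acp5-positive and 35 of 70 Acp5-zero cells. Il6 stood at 27.2 CPM against 79.2 CPM. Of 8 genes of MHC class II presentation 2 were higher, H2-Ab1 (384 CPM against 139 CPM) and H2-Aa (356 CPM against 169 CPM), and Cd80 was lower with 2 against 9 UMIs. Of the H2-Ab1 UMIs in positive cells 95 of 226 came from 1 cell, and with the macrophage genes raised to at least 1% of UMIs the log2 ratio was -2.33 in place of 1.43. Of 10 dendritic cell markers 3 were tested and 1 (Cd207) was higher, with Xcr1, Clec9a and Cd209a at 0 UMIs. Per cell they took 0 to 0.169% of UMIs in Acp5-positive and 0 to 0.0495% in Acp5-zero members, 52.6 CPM against 22.9 CPM in sum, and their part in the class II values was not tested.

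Of 14 monocyte genes 1 was higher and 2 lower (median -0.11), among them Plac8 with 13 against 31 UMIs and Cx3cr1 with 2 against 8. Ccr2, the receptor that recruits monocytes, had 19 against 20 UMIs and Ly6c2 8 against 14. Of 12 genes of resident macrophages 0 were higher and Ccl8 was lower, with 3 against 109 UMIs, 91 of which lay in 1 Acp5-zero cell (median -0.40). The complement genes of the rule, C1qa and C1qb, stood at 782 CPM against 1014 CPM and 784 CPM against 949 CPM. Of 21 interferon response genes 0 were higher and Mx1 and Gbp2 lower (median -0.23), each with at most 19 UMIs in a group. Of 9 genes of iron handling the iron exporter Slc40a1 was lower, with 2 against 14 UMIs.

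Among division genes, Mki67 was at 69.6 CPM against 28.2 CPM in 20 and 7 cells, while the replication gene Mcm5 (2 against 12 UMIs) and Stmn1 (14 against 33 UMIs) were lower. The log2 ratio of Mki67 turned from 1.17 to -0.66 when cells were thinned and split anew and to -0.56 with the Csf1r and Cd68 gate, and that of Stmn1 turned positive under 5 alternatives, up to 0.57. The median of 12 tested division genes was -0.44. Of the other lists, matrix proteases had 2 of 15 higher (Mmp9 and Mmp12), chemokines 2 of 17 higher (Ccl22 and Ppbp) and Ccl8 lower, growth factors 1 of 18 higher (Csf1), receptors 1 of 21 higher (Il13ra1) and Cx3cr1 lower, and integrins and tetraspanins 1 of 16 higher (Itgax) and Cd151 lower. None of 9 complement genes, 15 scavenger and Fc receptors or 12 oxidative stress genes was called.

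The 15 genes furthest apart in each direction under the naming thresholds had mostly low counts. Higher in Acp5-positive members were Ppbp, a chemokine precursor best known from platelets (121 against 19 UMIs in 9 cells of each group), Hivep3 (59 against 14), Mmp9, H2-Ab1, Csf3 (103 against 36), Mmp12, Ncf4, a subunit of the phagocyte oxidase (71 against 25), Hadha (33 against 11), Gpc1 (32 against 11), Nr4a3 (73 against 28), Arhgap31 (68 against 26), Sec63 (43 against 16), Shtn1 (37 against 14), Mki67 and Smim11 (31 against 12). Hivep3, a zinc finger factor, had UMIs in 26 Acp5-positive and 13 Acp5-zero cells, at most 7 in any, and a ratio of 4.06 (2.24 to 7.88). Csf1, the growth factor of macrophages themselves, had 26 against 8 UMIs and Il13ra1, a receptor chain for IL-13, 26 against 7.

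Lower in Acp5-positive members were Krt14 (6 against 47 UMIs), Cyr61 (14 against 72), AW112010 (13 against 64), Vcam1 (9 against 37), Slfn8 (9 against 33), Mpp6 (9 against 32), Txnip (13 against 40), Hspb1 (51 against 141), Il6 (16 against 45), Saa3 (36 against 81), Prmt1, Cebpz and Plac8 (13 against 31 each), Stmn1 and Fos. For Krt14, Cyr61, AW112010, Vcam1, Hspb1 and Saa3 a single Acp5-zero cell held 38, 53, 46, 22, 73 and 63 of the UMIs. Of 6 keratinocyte markers 3 were tested and all 3 (Krt5, Krt14 and Krt17) were lower. Per cell they took 0 to 0.0688% of UMIs in Acp5-positive and 0 to 0.500% in Acp5-zero members, and summed to 32.2 CPM against 255 CPM. Their part in the genes lower in Acp5-positive members was not tested. Mpp6 and Txnip were in 8 and 7 Acp5-positive against 20 and 19 Acp5-zero cells. Directions also turned under at least 1 alternative for Mmp9, H2-Ab1, Csf3, Mmp12 and Nr4a3 above, for Il6, Saa3 and Prmt1 here, and for H2-Aa, Csf1, Il13ra1, Itgax, Ccl22, Cx3cr1, Gbp2, Cd207 and Hba-a2 of the lists. In all, 26 of the 51 named genes called fell under 2-fold without 1 cell. Of 10 fibroblast markers 8 were tested and 0 called, at 3406 CPM against 3296 CPM in sum, and neutrophil markers summed to 173 CPM against 157 CPM with Cxcr2, Retnlg, Ly6g, Camp, Ngp and Ltf at 0. Sums were 3.39 against 14.1 CPM for T and NK cell markers, 28.9 against 22.9 CPM for endothelial, 81.5 against 95.03 CPM for pericyte and 434 against 246 CPM for erythroid markers. B cell markers summed to 0 against 1.76 CPM, and mast cell and adipocyte markers 0 in both.

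Graded by Acp5 count (0, 1, 2 to 4, and 5 or more), the members had median depths of 5044, 5741, 7644 and 11392 UMIs. Ctsk stood at 114, 159, 106 and 89.1 CPM, with no order. Atp6v0d2 was at 31.3, 16.4, 61.3 and 79.9 CPM, and the intervals of the cells with 0 (19.6 to 47.4) and with 5 or more (52.2 to 117) did not meet. These levels were not matched on depth. Thinned, Atp6v0d2 was seen in 5.95% (1.96 to 13.3%) of cells with 0 and 13.04% (2.78 to 33.6%) with 5 or more, and these intervals overlapped. None of the 18 alternatives within the rule, the matched split at 5 Acp5 UMIs included, brought Atp6v0d2 to 2-fold. Nfatc1 was at 17.1, 27.4, 40.9 and 46.1 CPM, Mmp9 at 62.7, 153, 123 and 151 CPM, and Mki67 at 29.9, 60.2, 119 and 126 CPM. Pf4, a gene of the rule, was at 6055, 7125, 7020 and 3075 CPM, so the 23 cells with most Acp5 had the lowest level. Spp1 stood at 8370, 7125, 7067 and 7048 CPM.

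Over 158 members thinned to 3000 UMIs and 3405 genes, the genes whose counts ranked most like Acp5 were Bhlhe40, Ano6, Dcn, Efr3a, Psma3, Sec61a1, Pmepa1, M6pr, Tgm2 and Atp6v0d1. Their Spearman correlations ran from 0.29 to 0.24, which is weak in counts this sparse and is given as a description. Dcn is a fibroblast matrix gene, and Atp6v0d1 is the widely expressed relative of Atp6v0d2. Ctsk had a correlation of -0.04 and Pf4 of -0.23.

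Most Acp5 of the day 7 library lay outside these macrophages. Of 6285 Acp5 UMIs in barcodes within the limits, members held 6.95%. A set of 36 barcodes outside the rule with at least 20 Acp5 UMIs and at least 1 UMI of Csf1r, the receptor for macrophage growth factor, held 3774 of them, 60.0%. This set was chosen after its values were seen, and its Acp5 (21 to 483 UMIs, median 87.5) and Csf1r levels are part of the choice. Of the 36, 35 failed the limit on the 5 macrophage genes and 15 had 0 UMIs of all 5. They held 5720 to 86223 UMIs with a median of 22446, 14 had a Pdgfra UMI and 8 were among the 428 highest doublet scores. Only 1 barcode with at least 20 Acp5 UMIs outside the rule had 0 Csf1r, and 5 members had at least 20. By the same count of Acp5 alone, 0, 4 and 37 such barcodes stood outside the rule in non-lesional skin, at day 2 and at day 7.

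These barcodes carried Ctsk, Nfatc1, Atp6v0d2 and Ocstamp at levels well above those of all 80 Acp5-positive macrophages, with no matching on depth (medians of 22446 and 8170 UMIs). Ctsk was seen in 33 of 36, with a median of 58.5 and at most 383 UMIs, against 37 of 80 Acp5-positive members with at most 11. The levels were 2771 CPM against 111 CPM, a ratio of 25.0 (20.2 to 31.2), and exceed the 606 CPM of Pdgfra-positive barcodes. Nfatc1 was in 35 of 36 at 760 CPM, against 39.9 CPM in Acp5-positive members (19.1-fold, 13.4 to 28.1). Atp6v0d2 was in 33 of 36 at 472 CPM, against 58.6 CPM (8.06-fold, 5.96 to 11.1). The fusion genes Ocstamp (116 CPM against 3.74 CPM, 25 barcodes against 2 cells) and Dcstamp (87.0 CPM against 11.2 CPM) were higher as well. Mmp9 was at 772 CPM against 141 CPM, although 367 of its 772 UMIs lay in 1 barcode. A UMI each of Ctsk, Atp6v0d2 and Mmp9 was found in 21 of the 36 and, together with Acp5, in 1 member.

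Further genes high in this set were Slc9b2, a sodium-proton exchanger of osteoclasts (277 CPM against 2.49 CPM), the integrin subunit Itgb3 (48.0 CPM against 2.49 CPM), Jdp2, a leucine zipper factor (816 CPM against 167 CPM), Src (151 CPM against 42.4 CPM), the transferrin receptor Tfrc (271 CPM against 18.7 CPM) and Mt3 (194 UMIs against 0, at least 51.9-fold against 3 counts over the members, with 112 in 1 barcode). In this comparison 16.1% of 9260 genes passed 2-fold upward and 8.41% downward. Of 13 resorption genes 7 were higher and 0 lower (median log2 1.28), and of 22 genes of differentiation and fusion 8 were higher and 4 lower (median 0.62). Respiratory chain genes were higher for 14 of 28 and lower for 0, and division genes for 12 of 20 and 0.

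The macrophage side ran the other way. Lyz2, lysozyme, was at 115 CPM against 6847 CPM, Pf4 at 12.004 CPM against 5443 CPM and C1qa at 6.00 CPM against 707 CPM, values that the rule itself separates. Among genes it did not use, Adgre1, the F4/80 antigen, was at 2.00 CPM against 131 CPM, Mrc1 at 1.00 CPM against 281 CPM, and F13a1 had 0 UMIs against 248, at least 103-fold lower against 3 counts over the set. Spp1 was at 988 CPM against 7073 CPM, Trem2 at 186 CPM against 448 CPM and Gpnmb at 92.0 CPM against 657 CPM. Of 16 macrophage identity genes 0 were higher and 11 lower, while Csf1r (433 CPM against 223 CPM), Spi1 (346 CPM against 256 CPM) and Tyrobp (1145 CPM against 1266 CPM) were within 2-fold.

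Summed over the set, all 10 of 10 fibroblast markers were at least 2-fold higher than in Acp5-positive members, which the rule had limited to 0 Pdgfra. All 4 tested pericyte or smooth muscle markers were higher too (median log2 2.63, against 2.53 for the fibroblast markers), with 271 of 276 Rgs5 UMIs in 1 barcode. The part of these markers in the other values was not tested. The 22 barcodes with 0 Pdgfra, at a median of 19849 UMIs, had Col1a1 at 1016 CPM, 0.833 times the level of Acp5-positive members, with Ctsk at 3240 CPM, Nfatc1 at 903 CPM and Atp6v0d2 at 468 CPM. Their ratios to Acp5-positive members were 29.2, 22.6 and 7.99, against 25.0, 19.05 and 8.06 over all 36. The 14 with a Pdgfra UMI had Col1a1 at 8898 CPM and Ctsk at 2298 CPM. The 28 barcodes without high doublet scores held 897 of the 4939 Col1a1 UMIs. Their Col1a1 was at 1404 CPM and Dcn at 125 CPM, 1.15 and 1.36 times the levels of Acp5-positive members. In the same 28, Ctsk was at 3418 CPM and Nfatc1 at 1008 CPM, 30.8 and 25.3 times those levels.

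**Figure D3:**
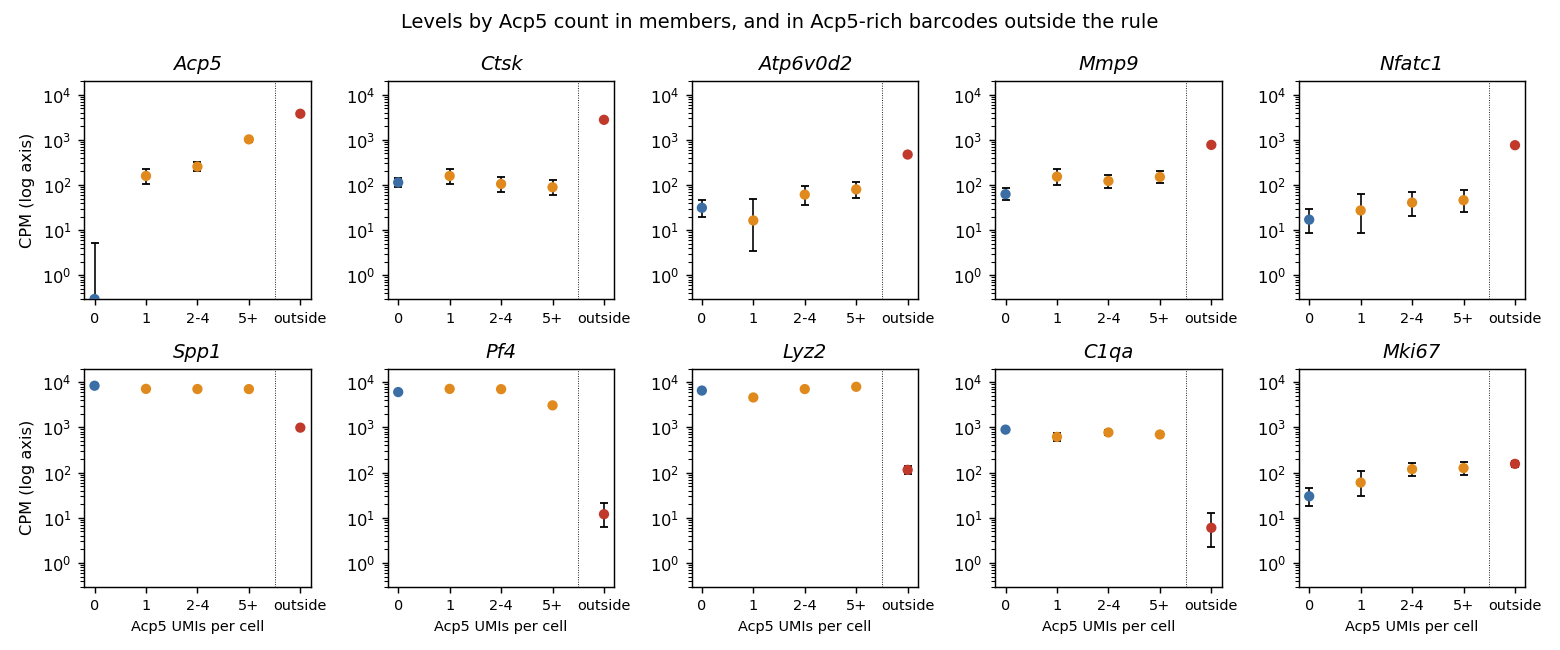
Summed CPM (log axis) of 10 genes in day 7 members with 0, 1, 2 to 4 and 5 or more Acp5 UMIs, and, right of the dotted line, in the 36 Acp5-rich barcodes outside the rule, with exact Poisson 95% intervals for counting error and a level of 0 drawn at the axis floor. Ctsk stays between 89.1 and 159 CPM in members and is at 2771 CPM outside, while Lyz2, Pf4 and C1qa are lower outside.

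The Ctsk and Nfatc1 values differed with the gate. With macrophages taken instead by at least 3 UMIs of Csf1r and Cd68 together, keeping the other limits (a gate added after the data were seen), 209 barcodes passed, of which 124 were also members and 99 were Acp5-positive. In 81 pairs matched on depth, Ctsk was at 656 CPM in Acp5-positive and 52.2 CPM in Acp5-zero barcodes (12.6-fold, 9.17 to 17.6). Nfatc1 was 8.62-fold (5.78 to 13.3), Mmp9 5.17-fold (3.71 to 7.37), Ocstamp 4.97-fold (2.04 to 14.6) and Atp6v0d2 3.59-fold (2.44 to 5.41) higher. Spp1 was at a ratio of 0.913 (0.875 to 0.952), nearer to 1 than the 0.722 under the rule. Ctsk was seen in 45.7% of Acp5-positive and 39.5% of Acp5-zero barcodes, so the fold lay in the UMIs per barcode more than in the share of barcodes. Some markers of other cell types were higher in the Acp5-zero barcodes of this gate. Acp5-positive barcodes had 32 against 500 UMIs of Cd207 (Langerhans cells), 8 against 349 of Rgs5, 5 against 103 of Krt14 and 572 against 2546 of H2-Aa. Rgs5 was seen in 9.88% of Acp5-positive and 11.1% of Acp5-zero barcodes, so its UMIs differed more than its share of barcodes. Fibroblast markers were mixed, with Col5a2 at 73 UMIs in each group, Postn at 70 against 118 and Dcn at 70 against 45. The neutrophil marker Mmp8 had 48 against 27. The part of these markers in the folds was not tested. Of the 81 Acp5-positive barcodes in the pairs, 12 had at least 20 Acp5 UMIs.

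**Figure D4:**
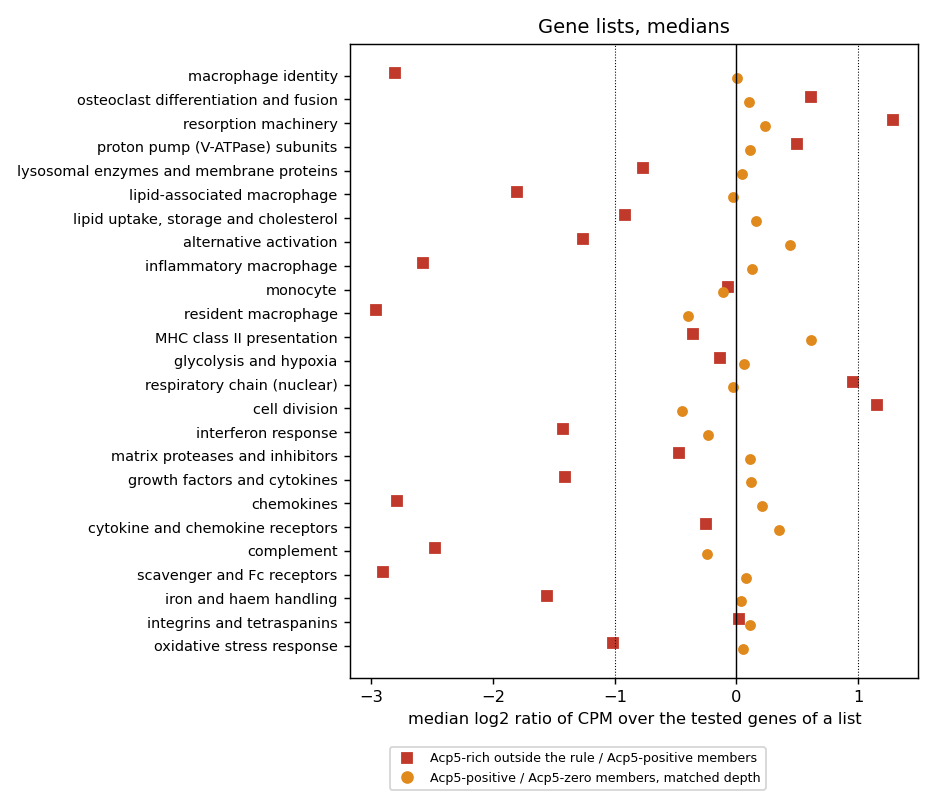
Median log2 ratio of CPM over the tested genes of 25 lists of functions and cell states (lists of other cell types' markers are not drawn), for the 36 Acp5-rich barcodes outside the rule over Acp5-positive members (squares) and for Acp5-positive over Acp5-zero members at matched depth (circles), with dotted lines at 2-fold. The circles lie between -0.44 and 0.61, and the squares reach 1.28 for resorption machinery and -2.96 for resident macrophage genes.

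Near the limit itself, the 14 barcodes just inside (0.3 to under 0.4% of UMIs from the 5 genes) included 6 with Acp5 and at most 11 UMIs. The 20 just outside (0.2 to under 0.3%) included 7 with Acp5 and at most 10 UMIs.

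The same split was made at day 2, where 39 pairs could be matched (137500 and 136431 UMIs). There Ctsk had 2 UMIs in each group, Atp6v0d2 0 in each, Nfatc1 3 against 2 and Mmp9 4 against 4, which is too few to compare. Spp1 was at 4356 CPM in Acp5-positive and 4698 CPM in Acp5-zero members (ratio 0.927, 0.828 to 1.04), and Arg1 at a ratio of 0.671 (0.588 to 0.766). Lyz2 was called higher at day 2, at 2153 CPM against 1041 CPM, while at day 7 its ratio was 0.918. At day 2, 10.5% of 3372 genes were called higher and 5.49% lower. Of 26 named genes called at day 7 and tested at day 2, 10 had the same sign, and over all 3356 genes tested at both times 49.1% did. In non-lesional skin 3 members had Acp5, too few to compare.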

How the data were processed

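The deposited files hold counts of UMIs per gene and barcode in 3 libraries, made by the authors with Cell Ranger 5.0.0, per the file headers, while the submitters' processing notes name Cell Ranger 3.0.2, Seurat 3.0 and mm10. The members and gene lists were chosen with earlier results of these data known. The rule was applied to the raw counts. Acp5-positive and Acp5-zero members were paired by optimal assignment on total UMIs (at most 0.25 apart on the log2 scale), UMIs were summed per group and scaled to CPM by the group total, and ratios were taken with 5 CPM added. Genes needed 10 UMIs over both groups and were called at 2-fold. Intervals are exact Poisson for levels, conditional binomial for ratios and Clopper-Pearson for shares. A threshold of 3 counts was used as the limit for a count of 0.

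Genes named were the 15 furthest apart in each direction, the 4 furthest apart of each list, and 22 fixed genes. For the first part the higher group needed at least 50 CPM and 10% of cells with the gene, at 2-fold or more. List genes needed only the 10 UMIs over both groups, and the fixed genes had no such limit. Mitochondrial, ribosomal protein, haemoglobin, Gm and Rik genes were left out of the first part. The genes described in the Acp5-rich barcodes outside the rule were chosen after their values were seen. Doublets were scored with Scrublet in scanpy 1.11.5, whose own threshold marked 0 of 5142 barcodes and so did not work. The 428 highest scores were left out as an alternative instead. Scripts used Python 3.11.15, numpy 2.4.6, scipy 1.17.1, pandas 2.3.3, and edgeR 4.0.16 in R 4.3.3 for TMM scaling. The matched comparison was also run on simulated counts with counting error only, so without the spread between cells of these data. There 3.06% of 7245 genes set at a ratio of 1 were called in the 2 directions together, and 1.56% were called higher. Of genes set 2-fold higher and 2-fold lower, 39.6% of 48 and 42% of 50 were called. In the data, 2.52% of 7447 genes were called higher and 2.56% lower.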

Additional observations from a re-analysis of the deposited data

How the results depend on the processing

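No paired analysis was possible because each time point has 1 library and the results come from no test. Over 19 alternatives, 67 of the 147 named genes gave 1269 values. A reversal is a change of sign of a gene called at 2-fold. Among these values there were 29, in 17 genes. Another 184 values moved past the counting interval, among them sign changes of genes that were not called (such as Lpl and Ccr2 with at least 5 Acp5 UMIs, and Ctsk, Arg1 and Spp1 when thinned and split anew). The cause was not tested. Against 188 genes higher and 191 lower, counts were 307 higher when cells were thinned to 3000 UMIs, 354 higher and 338 lower with at least 5 Acp5 UMIs as positive, 336 higher with per-cell means, 375 and 357 with a pseudocount of 1 CPM, 354 and 482 with no UMI minimum, 317 higher without cells with Mki67 or Top2a, and 306 and 529 with the Csf1r and Cd68 gate. The share of members with Acp5 was 31.6% when thinned. Reversed log2 ratios were, with no matching, Stmn1 0.033; thinned, Stmn1 0.34 and Mmp9 -0.20; thinned and split anew, Csf1 -0.39, Csf3 -0.026, Cx3cr1 0.062, Gbp2 0.29, Mki67 -0.66 and Mmp12 -0.45; with at least 5 Acp5 UMIs, Csf3 -0.35; without high doublet scores, Stmn1 0.042 and Saa3 0.85; with 1% macrophage gene UMIs, Stmn1 0.57, Saa3 1.28, Ccl22 -0.46, H2-Aa -3.13 and H2-Ab1 -2.33; without Mki67 or Top2a cells, Saa3 0.78; without the Acp5-zero cell with most UMIs, Saa3 0.79. With the Csf1r and Cd68 gate they were Stmn1 0.26, Cx3cr1 0.77, H2-Aa -2.20, H2-Ab1 -2.08, Il13ra1 -0.54, Il6 0.084, Itgax -1.19, Mki67 -0.56, Nr4a3 -1.69 and Prmt1 0.39. Cd207 and Hba-a2 were called but were not among the 67. With this gate their log2 ratios turned from 1.67 to -3.86 and from 1.01 to -0.84. The split at 5 Acp5 UMIs, the Csf1r and Cd68 gate, leaving out the cell with most UMIs of a gene and the Acp5 share without high doublet scores were chosen after seeing the data. TMM and median-of-ratios scaling reversed none of the 67 genes and set the median log2 ratio of all genes at -0.001 and 0.06.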
